A study of Homo sapiens with 12 samples.

Results

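The regions described here are stretches of transcripts that an antibody against N6-methyladenosine (m6A) pulled down strongly from the control cells. They were taken from the authors' deposited m6A table by 3 conditions set on its control counts. A region carried a single gene label, its summed control input count was 50 or more, and its summed control IP count was at least 2 times that input count. These conditions took 3670 of the 46178 regions in the table (7.95%), under 2850 of 10567 genes that had any single-gene region with enough control input. Such single-gene regions with 50 or more control input counts, 32039 in number, are called eligible regions below, and the eligible regions outside the group, 28369 in number, are called the other regions. The control counts chose the members, so their control ratios are given as a description only. The toosendanin counts were not used in the choice.

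HepG2, a standing human line grown out of a liver tumour, gave the RNA, after toosendanin or under the condition labelled control. Toosendanin is a triterpenoid of Melia toosendan known for its liver toxicity. Each condition had 3 IP libraries, made from RNA pulled down with the antibody, and 3 input libraries, 12 in all. The labels give no dose, time or vehicle. Counts were deposited as sums over the libraries of a condition, so each region has 1 value per condition, and no spread between libraries stands behind any m6A value below.

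The mark m6A is the most common internal modification of mRNA. It is laid down in the nucleus by a complex built around METTL3 and METTL14, mostly in long internal exons, in last exons and near stop codons, within a short consensus around the methylated adenosine. It can be removed by FTO and ALKBH5. Proteins of the YTH family bind it, and binding by YTHDF proteins is known to shorten the life of many mRNAs. Transcripts of regulators, among them transcription factors and zinc finger proteins, are known to carry more of it than transcripts of housekeeping genes such as those for ribosomal proteins. Positions and sequences of the regions were not analysed here.

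The ratio of IP to input counts is a relative measure, because the libraries differ in depth. Over all 46178 regions the IP total was 29094328 and the input total 24253006 after toosendanin, against 42316089 and 34131862 in control, so the ratio of the totals was 1.20 after toosendanin and 1.24 in control. A ratio of 2 is therefore less than 2 times the average of the table. The label of the cells fitted their transcripts: 11 of 12 hepatocyte and HepG2 markers had a mean normalized count of 100 or more in the authors' deposited expression table. The exception was TM4SF4 at 1.27. All fibroblast markers stood at 36.1 or lower and all endothelial markers under 36.1 as well in that authors' deposited table. Of 6 blood and immune markers, 2 were at 0, and the highest was LYZ at 49191 in the same authors' deposited table.

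The members held 17.6% of all IP counts and 9.68% of all input counts after toosendanin, against 19.6% and 10.3% in control. Their control ratios ran from 2.0 through a median of 2.38 to 6.12, and the upper quartile was 2.72. For 2043 of the 3670 members, the 95% exact interval of the control ratio, which covers counting error alone, lay wholly above 2. The remainder could lie on either side of the limit by counting error. Members at the limit show how little separates the sides. Some lay at exactly 2, among them AASS, an enzyme of lysine breakdown, with 584 IP and 292 input counts in control. Of those just above 2, ELL2, an elongation factor of RNA polymerase II, was inside with 5499 IP and 2749 input counts in control, while VIRMA, a subunit of the m6A writer complex, was outside with 5207 and 2604. YTHDF3, a reader of m6A, and PLEKHA5 were inside at 2.001 each, while SLTM was outside at 1.998.

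After toosendanin most members were still enriched. Of the 3670 members, 2480 (67.6%) had a toosendanin IP over input ratio of 2 or more, against 554 of the 28369 other regions (1.95%). A toosendanin ratio of 1.5 or more was found in 3527 members (96.1%) and in 4378 other regions (15.4%), and 3669 members stood at 1 or more. The single exception was a region of the ubiquitin ligase gene RNF166, with 88 IP and 91 input counts after toosendanin (ratio 0.967) against 186 and 91 in control (2.04). With 50 or more input counts also after toosendanin, 3197 members remained, and their toosendanin ratios had a median of 2.15, with a range from 0.967 to 4.52. The other regions counted as deeply, 25354 in number, had a toosendanin median of 0.977. Summed over all members, the ratio was 2.18 after toosendanin and 2.35 in control. Counting error alone put the toosendanin interval above 2 in 1172 members and below 2 in 263, and in 2235 members the interval held 2.

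**Figure D1:**
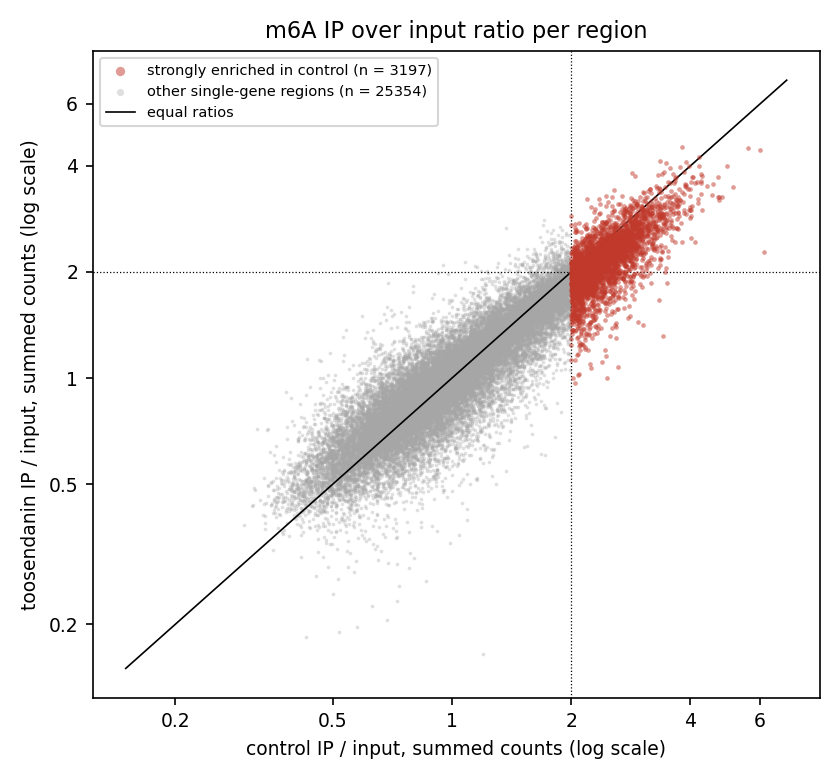
IP over input ratio of summed counts per region, control on the horizontal axis and toosendanin on the vertical axis, both on log scales, for single-gene regions with 50 or more input counts in both conditions. Red points are the 3197 strongly enriched regions, grey points the 25354 other regions, dotted lines mark a ratio of 2, and most red points lie between the dotted line at 2 and the diagonal of equal ratios or just under that line.

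The order of the members was largely kept. Over the 3197 members with 50 or more input counts in both conditions, the toosendanin and control ratios had a Spearman correlation of 0.67 across regions, which share their libraries and are no independent replicates. Members with a control ratio from 2 to 2.5 had a median toosendanin ratio of 2.02, and 1039 of 1959 were at 2 or more. In those from 2.5 to 3 the toosendanin median was 2.38 and 736 of 852 were at 2 or more, and in those from 3 to 4 it was 2.83 with 340 of 351. All 35 members with a control ratio of 4 or more and enough toosendanin input stayed at 2 or more, with a toosendanin median of 3.48.

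Members also stood out from other stretches of the same transcript in the toosendanin counts. In 1963 genes, a member and an eligible region outside the group both had 50 or more toosendanin input counts. The toosendanin ratio of the members (their median, where there were several) was above the median of the gene's other eligible regions in 1923 of these genes (98.0%). In 1808 genes (92.1%), every member was above every other eligible region of its gene. Over these genes the median toosendanin ratio was 2.13 for members and 1.12 for the other regions of the same genes. A comparison within a gene removes differences in transcript level, though not differences in how reads were assigned along it. Genes with a member had a median of 3 eligible regions and genes without one a median of 2.

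The highest control ratio belonged to ASPH, the gene of an aspartyl hydroxylase of the endoplasmic reticulum. This region had 330 IP and 145 input counts after toosendanin, against 545 and 89 in control. Its ratio was 2.28 after toosendanin (95% counting interval 1.87 to 2.79) and 6.12 in control (4.89 to 7.75), and these intervals were far apart. ZNF708, a zinc finger gene, followed with 226 IP and 51 input counts after toosendanin (ratio 4.43) and 384 and 64 in control (6.0). A region of ANKRD12, which encodes a nuclear ankyrin repeat protein, had 436 and 97 counts after toosendanin (4.49) against 698 and 125 in control (5.58). The intervals of ZNF708 and of ANKRD12 overlapped between the conditions.

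A death receptor and several transcription factor genes were among the rest of the top 15. TNFRSF10A, a death receptor for the ligand TRAIL, had a toosendanin ratio of 4.0 from 460 IP and 115 input counts, against 4.93 in control from 592 and 120. ZBTB10, a zinc finger repressor, stood at 3.27 after toosendanin and 4.80 in control, and the zinc finger genes ZNF480 and ZNF138 at 3.20 and 3.27 after toosendanin against 4.73 and 4.72 in control. NFE2L3, a transcription factor related to NRF2, had 519 IP and 173 input counts after toosendanin (3.0, interval 2.52 to 3.58) and 1482 and 347 in control (4.27, interval 3.80 to 4.81), so its intervals did not overlap. TWISTNB, a subunit of RNA polymerase I, stood at 3.27 after toosendanin and 4.71 in control, and SLC35B3, a Golgi transporter of the sulfate donor PAPS, at 3.74 after toosendanin and 4.29 in control. KANTR, a long noncoding RNA, and CCDC122 had 3.31 and 3.50 after toosendanin against 4.54 and 4.41 in control. The other 3 regions belonged to GUSBP14 and GUSBP16, pseudogenes of beta-glucuronidase with near-identical copies, and are uncertain for that reason. All 15 were lower after toosendanin than in control, which the choice of the highest control values favours by itself.

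**Figure D2:**
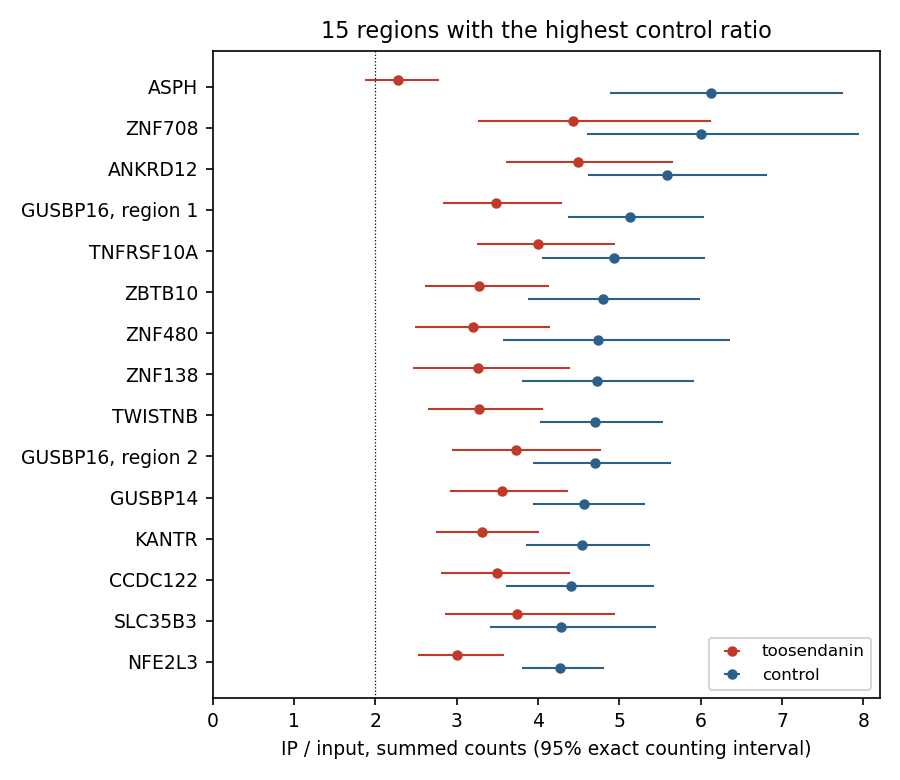
IP over input ratio of summed counts (horizontal axis) for the 15 regions with the highest control ratio among members with 50 or more input counts in both conditions, toosendanin in red above control in blue. Points are ratios, bars are 95% exact intervals for counting error only, the dotted line marks 2, and ASPH shows the widest gap, at 2.28 after toosendanin and 6.12 in control.

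The members with the most input counts were measured with the least counting error, and several of them lay close to the limit. DSP, the desmosomal linker desmoplakin, had 124862 IP and 64997 input counts after toosendanin (ratio 1.92, interval 1.90 to 1.94) against 262412 and 129368 in control (2.03, interval 2.01 to 2.04). NPM1, the nucleolar chaperone nucleophosmin, stood at 2.14 (2.12 to 2.15) after toosendanin and 2.25 (2.24 to 2.27) in control. APOB, the structural apolipoprotein of very low density lipoprotein, stood at 1.79 (1.77 to 1.81) after toosendanin and 2.01 (1.99 to 2.02) in control, and the fibrinogen chain FGB at 1.89 (1.87 to 1.92) after toosendanin and 2.01 (1.99 to 2.03) in control. The translation factor EIF3A had 1.98 after toosendanin and 2.11 in control, and the splicing-associated protein PNN had 1.99 after toosendanin and 2.15 in control. ANKRD11, a chromatin regulator, had 2.47 after toosendanin and 2.58 in control. All 7 of these regions are called lower in the authors' deposited table, by 0.09 to 0.17 on the log2 scale. Of all regions with an FDR there, 6.24% were called lower. The control counts in that contrast chose these members, so nothing is read from the count. The log2 ratio of the table totals itself differed by -0.05, toosendanin minus control.

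MALAT1, a nuclear noncoding RNA whose m6A sites are well documented, had a member with 119190 IP and 52335 input counts after toosendanin (2.28, interval 2.25 to 2.30) and 129834 and 50528 in control (2.57, interval 2.54 to 2.60). TALAM1, listed separately, is transcribed antisense to MALAT1 and had nearly the same counts, 114954 and 49759 after toosendanin. APOA1-AS likewise had 51389 input counts after toosendanin and 44786 in control, while its mean normalized count in the authors' deposited expression table was 1.32. Reads under such antisense labels cannot be told apart here from reads of the partner gene.

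Few members had a near-equal region under the label of an overlapping gene. In 20 pairs of regions with labels of overlapping genes, all 4 counts agreed within 10%, and these pairs held 40 members. MAFK and TMEM184A formed such a pair, as did KAT5 and RNASEH2C, and LINC01270 and LINC01271. With each pair counted once, 3650 members were left. APOA1-AS was in none of these pairs, so 40 is a lower bound for the members that may share reads. In 58 members the input counts per library were above the mean normalized count of the labelled gene in the authors' deposited expression table. Besides TALAM1 and APOA1-AS these included F7, with 1112 input counts per library against 477.2, and PLCG1-AS1, with 951.8 against 22.5. Without them 67.4% of 3612 members had a toosendanin ratio of 2 or more, and the median log2 difference between the conditions was unaltered at -0.15.

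The members' ratios were lower after toosendanin than in control by a small amount. Over the 3197 members counted in both conditions, the median difference of log2 ratios, toosendanin minus control, was -0.15, with quartiles at -0.29 and -0.05, and 2666 of them (83.4%) were lower. The other regions had a median of 0.02 and 46.8% were lower. Because the members were picked for high control values, part of such a fall is built into the choice. The same rule was therefore applied to the toosendanin sums, where the choice pushes the difference upward. It took 2469 regions with enough control input, 2150 of them members, and their median difference was -0.07, with 1619 lower (65.6%). Their median ratio was 2.28 after toosendanin and 2.44 in control.

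A choice that treats the conditions alike gave a value in between. Of 28551 eligible regions with 50 or more input counts in both conditions, 2717 had a geometric mean of both ratios of 2 or more. Their median difference was -0.12 and 2072 (76.3%) were lower after toosendanin. Grouped by that mean, the median difference was 0.09 in 765 regions below 0.5, 0.04 in 6980 regions from 0.75 to 1 and -0.06 in 4144 regions from 1.5 to 2. It was -0.10 from 2 to 2.5, -0.13 from 2.5 to 3 and -0.16 in 233 regions at 3 or more. Regions with little enrichment thus lay slightly higher after toosendanin and regions with much enrichment slightly lower. Scaling each column to its total adds 0.05 to each of these differences, which turns the sign only between 1.25 and 1.5, where the median was -0.03. With 1 summed value per condition, a change in the cells and a difference in pull-down between the libraries cannot be told apart.

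**Figure D3:**
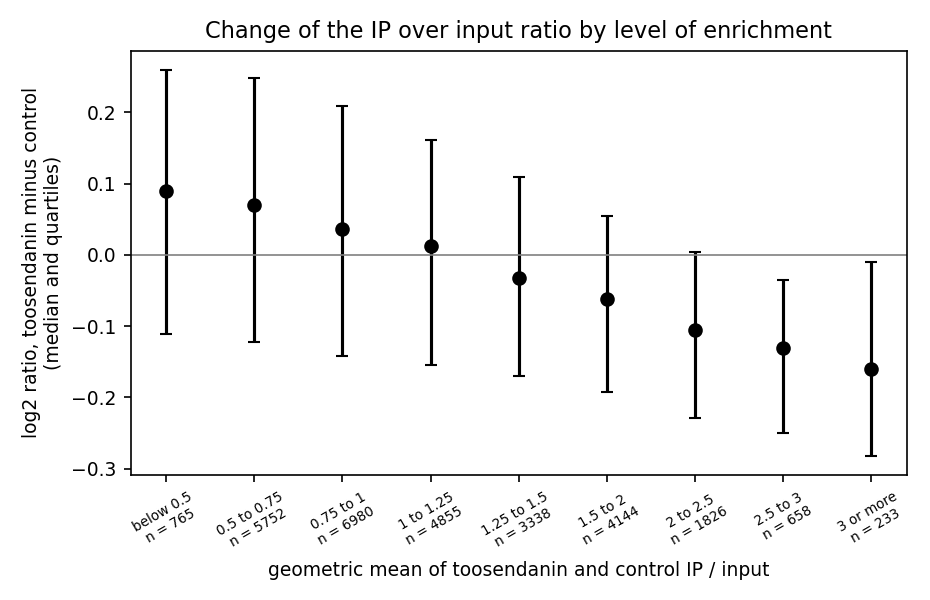
Difference of the log2 IP over input ratio, toosendanin minus control (vertical axis), for eligible regions grouped by the geometric mean of both ratios (horizontal axis). Points are medians, bars run between the quartiles, n is the number of regions, and the medians run from 0.09 in the lowest group to -0.16 in the highest.

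The authors' deposited m6A table calls a minority of these falls. An FDR is given for 3088 of the 3670 members in the authors' deposited table. Of these members 428 were under 0.05 in the authors' deposited table, 427 lower (13.8%) and 1 higher after toosendanin. Of all 24688 regions with an FDR in the authors' deposited table, 8.95% were called, 6.24% lower and 2.71% higher. The contrast holds the control counts that chose the members, so nothing is read from the members' share. The called members had a median deposited log2 change of -0.29, and the smallest was 0.06 in size. The deposited change is not the difference of the summed log2 ratios, and in the regions named here it mostly lay below that difference. For FOXA2 it was -0.10 against -0.01. How it was computed is not given. Only 9 called members fell by 2-fold or more in the authors' deposited table, and 213 of the 427 still had a toosendanin ratio of 2 or more.

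The largest called decrease was that of ASPH, at -1.43 on the log2 scale with an FDR of 6.60e-09 in the authors' deposited table. SPRED1, which restrains RAS and MAP kinase signalling, followed with 84 IP and 64 input counts after toosendanin (ratio 1.31) against 239 and 70 in control (3.41), a change of -1.38 (authors' deposited table, FDR 0.000328). CDV3 and SGO2, a protector of centromeric cohesion, also fell past 2-fold, from 41 and 43 toosendanin input counts. The region shared by MAFK, a small MAF transcription factor, and TMEM184A had 157 and 141 counts after toosendanin under the MAFK label (1.11) and 489 and 204 in control (2.40). The authors' deposited table gives it -1.15 with an FDR of 2.06e-06. The zinc finger genes ZNF92 and ZNF503 stood at 1.41 and 1.02 after toosendanin, against 3.03 and 2.08 in control. FAHD1, a mitochondrial hydrolase, had 1.44 after toosendanin and 2.94 in control, and SSUH2 had 1.86 after toosendanin and 3.49 in control. The change of SSUH2, at -0.99 in the authors' deposited table, was just under 2-fold. In SPRED1, MAFK, FAHD1 and ZNF503 the toosendanin interval ended below 2. With CDV3 and SGO2 set aside, these decreases rest on 51 to 148 toosendanin input counts.

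The 1 called increase was in PKD1P5-LOC105376752, a label that joins a PKD1 pseudogene with its neighbour. It had 13794 IP and 5759 input counts after toosendanin (2.40, interval 2.32 to 2.47) against 24740 and 11553 in control (2.14, interval 2.10 to 2.19), and the authors' deposited table gives a log2 change of 0.12 with an FDR of 0.000373. PKD1 has several near-identical pseudogene copies, so reads of this region may have been split among them and the value is uncertain. The members with the lowest toosendanin ratios, next to RNF166, were LOC101927974 and MIER3 at 1.0, ZNF503 at 1.02 and PAXIP1, a DNA damage response protein, at 1.03. Among these 5, ZNF503 alone has an FDR in the authors' deposited table.

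Gene groups differed widely in how many of their genes had a strongly enriched region. Among all genes with an eligible region the share was 27.0%, and 11.5% of eligible regions were members. A gene with more eligible regions has more chances to hold a member, so the share of regions is given beside the share of genes. Zinc finger genes with numbered ZNF names stood at the upper end, with a member in 174 of 288 genes (60.4%) and in 245 of 779 regions (31.5%). Over all their eligible regions the median ratio was 1.51 after toosendanin and 1.61 in control, against 1.04 in both conditions over all eligible regions. Besides those named above, ZNF292 had a member at 3.53 after toosendanin and 3.90 in control. Of 207 zinc finger members with enough toosendanin input, 138 stayed at 2 or more. Most of these genes encode DNA-binding repressors of the KRAB family, which have many close relatives, so reads of similar stretches may be shared among them.

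**Figure D4:**
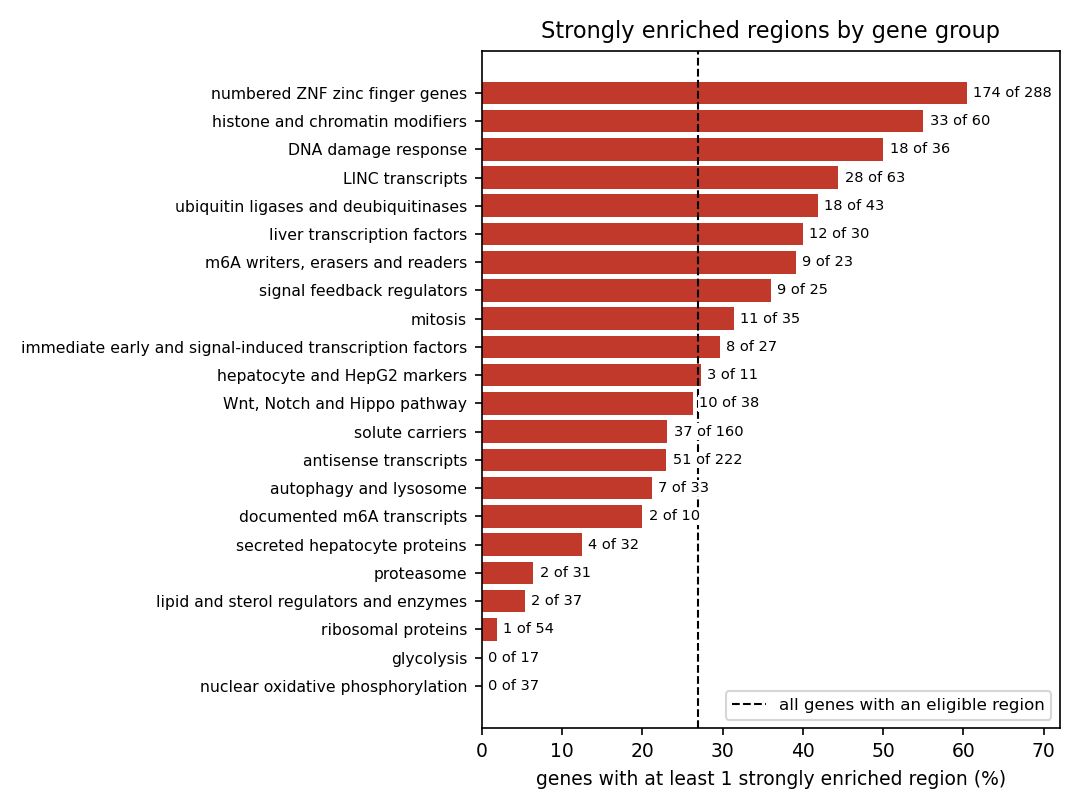
Share of genes with at least 1 strongly enriched region (horizontal axis, percent of the group's genes with an eligible region) in gene groups with 10 or more such genes. The dashed line marks 27.0%, the share among all genes with an eligible region, and the groups run from 60.4% for numbered ZNF genes to 0 for glycolysis and nuclear oxidative phosphorylation.

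Chromatin genes followed by gene, but not by region. Of 60 histone and chromatin modifiers, 33 (55.0%) had a member, while 55 of their 424 eligible regions were members (13.0%), near the 11.5% over all eligible regions. In this group 37 of 51 members with enough toosendanin input stayed at 2 or more. DNMT3A, a DNA methyltransferase, had 1308 IP and 366 input counts after toosendanin (3.57) against 2670 and 736 in control (3.63). Its intervals overlapped, and it was not called in the authors' deposited table (FDR 0.846). KDM6B, a histone H3K27 demethylase, stood at 3.15 after toosendanin and 3.49 in control. KMT2E, a protein of the histone methyltransferase family, had 2.72 after toosendanin and 3.56 in control, a called decrease of -0.43 in the authors' deposited table (FDR 0.00771). NSD3, a histone H3K36 methyltransferase, had 2.91 after toosendanin and 3.40 in control, with a called decrease of -0.24 in the authors' deposited table (FDR 0.0427).

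Among genes of the DNA damage response, 18 of 36 (50%) had a member, and 31 of their 118 eligible regions were members (26.3%). Of the ubiquitin ligases and deubiquitinases 18 of 43 had one (41.9%), but 23 of 255 eligible regions were members (9.02%), under the share over all eligible regions. MDM2, the ligase that keeps p53 low, had 1074 IP and 351 input counts after toosendanin (3.06) against 1740 and 437 in control (3.98), a called decrease of -0.38 in the authors' deposited table (FDR 0.0184). FBXW7 and FBXO11, substrate receptors of SCF ligases, stood at 3.21 and 3.12 after toosendanin and at 3.67 and 3.62 in control. USP1, a deubiquitinase of DNA repair, had 2.88 after toosendanin and 3.40 in control, with a called decrease of -0.24 in the authors' deposited table (FDR 0.0308). In this ligase group 20 of 23 members with enough toosendanin input stayed at 2 or more. BOD1L1, which protects replication forks, held nearly equal ratios of 2.997 after toosendanin and 3.018 in control, from 1459 and 2658 input counts in that order. PALB2, a partner of BRCA2 in homologous recombination, had 2.52 after toosendanin and 2.75 in control.

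Signal-driven regulators showed members too. Of 25 signal feedback regulators 9 had one (36.0%), of 27 immediate early transcription factors 8 (29.6%), and of 38 Wnt, Notch and Hippo genes 10 (26.3%). By region the shares were 12 of 89 (13.5%) for the feedback regulators, 9 of 75 (12%) for the immediate early factors and 16 of 157 (10.2%) for the Wnt, Notch and Hippo genes, all near 11.5%. JUN, a subunit of AP-1, had 10158 IP and 3354 input counts after toosendanin (3.03, interval 2.91 to 3.15) and 5987 and 1679 in control (3.57, interval 3.38 to 3.77). The difference of these log2 ratios was -0.24. The authors' deposited table calls a decrease of -0.32 (FDR 7.97e-09). EGR1, an immediate early factor, stood at 2.73 from 870 input counts after toosendanin and at 3.13 from 210 in control. KLF13, a Krüppel-like factor, had 1.95 after toosendanin and 2.86 in control, and the circadian repressor BHLHE40 2.19 after toosendanin and 2.65 in control, both called decreases in the authors' deposited table (FDR 0.00456 and 0.000426). SPRY1, an inhibitor of receptor kinase signalling, had 2.97 after toosendanin and 3.12 in control. JAG1, a Notch ligand, had 2.84 after toosendanin and 3.10 in control, a called decrease of -0.17 in the authors' deposited table (FDR 0.0375). APC, a scaffold of the beta-catenin destruction complex, had 3.10 after toosendanin and 2.93 in control, and its intervals overlapped.

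Liver transcription factors had members in 12 of 30 genes (40.0%) and in 14 of 116 eligible regions (12.1%), near the share over all eligible regions. ONECUT2, a cut homeobox factor, had a ratio of 3.27 after toosendanin and 3.71 in control, and NR5A2, a nuclear receptor of bile acid synthesis genes, 2.46 after toosendanin and 3.59 in control. ONECUT1 stood at 2.10 after toosendanin and 2.84 in control, and the coactivator PPARGC1A at 1.94 after toosendanin and 2.71 in control. FOXA2, a pioneer factor of liver genes, had 2.11 after toosendanin and 2.12 in control, from 1065 and 1879 input counts in that order. None of these 5 has an FDR under 0.05 in the authors' deposited table. The secreted products of hepatocytes had fewer members, in 4 of 32 genes (12.5%) and 4 of 100 eligible regions. These were F5 and F7 among coagulation factors and the APOB and FGB regions given above. The F5 region had only 34 toosendanin input counts. F7 is among the members above whose input counts exceeded the mean normalized count of the labelled gene.

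Of 23 m6A writers, erasers and readers 9 had a member (39.1%), and 12 of their 86 eligible regions were members (14.0%), near the share over all eligible regions. METTL14, the RNA-binding partner of METTL3, had 693 IP and 293 input counts after toosendanin (2.37, interval 2.06 to 2.72) and 1065 and 432 in control (2.47, interval 2.20 to 2.76). The writer subunit ZC3H13 stood at 2.19 after toosendanin, from 6608 input counts, and at 2.33 in control, from 11917, with a called decrease of -0.12 in the authors' deposited table (FDR 0.000582). RBM15, which guides the writer complex to RNA, had 1.73 after toosendanin and 2.26 in control, a called decrease of -0.45 in the authors' deposited table (FDR 0.0255). The reader YTHDC2 had 2.15 after toosendanin and 2.14 in control.

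Housekeeping groups had few or no members. For comparison, 27.0% of all genes with an eligible region had a member, and 11.5% of all eligible regions were members. None of 37 nuclear genes of oxidative phosphorylation, with 71 eligible regions, and none of 17 glycolytic genes, with 44, had one. The median ratio over all eligible regions was 0.763 after toosendanin and 0.747 in control for the respiratory genes, and 0.659 after toosendanin and 0.560 in control for the glycolytic ones. Of 54 ribosomal protein genes RPL37 alone had members (1.85%), in 2 of 96 eligible regions. The higher stood at 2.19 after toosendanin and 2.76 in control. The proteasome had members in 2 of 31 genes and 3 of 83 eligible regions. PSMC1 stood at 2.85 after toosendanin and 3.34 in control, and PSMA4 at 2.15 after toosendanin and 2.5 in control. PSMA4 had a called decrease of -0.22 in the authors' deposited table (FDR 4.41e-05). Lipid and sterol genes had members in 2 of 37 genes and 2 of 161 eligible regions. These were the cholesterol exporter ABCA1 (2.33 after toosendanin and 2.69 in control) and HMGCS1 of sterol synthesis (1.86 after toosendanin and 2.01 in control). Autophagy and lysosome genes were less far below these shares, with members in 7 of 33 genes (21.2%) and 7 of 88 eligible regions (8.0%). RRAGC, a GTPase of amino acid sensing, stood at 2.88 after toosendanin and 2.81 in control, and WIPI2, which acts in autophagosome formation, at 1.75 after toosendanin and 2.40 in control. Of 7 such members with an FDR in the authors' deposited table, 2 were called lower, WIPI2 among them (FDR 0.0102), and 0 higher. Over all regions with an FDR 6.24% were called lower and 2.71% higher. The control counts in that contrast chose the members, so nothing is read from this count.

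Noncoding transcripts did not form 1 class. Of 63 LINC transcripts 28 had a member (44.4%), with 31 of 111 eligible regions (27.9%), led by LINC00673 at 2.71 after toosendanin and 3.26 in control, while of 222 antisense transcripts 51 did (23.0%), with 60 of 339 eligible regions (17.7%). By the biotypes of RefSeq, 2598 of 9651 protein-coding genes had a member (26.9%) and 118 of 410 long noncoding RNAs (28.8%). Of the transcripts documented as m6A targets, 2 of 10 with an eligible region had one (20%), JUN and MALAT1. By region 3 of their 54 eligible regions were members (5.56%), under the 11.5% over all eligible regions. The median ratio over these 54 was 0.81 after toosendanin and 0.86 in control, against 1.04 in both conditions over all eligible regions. Of 160 solute carrier genes 37 had one (23.1%), with 44 of 419 eligible regions (10.5%), among them SLC7A11, the cystine transporter, at 2.54 after toosendanin and 2.99 in control.

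Most genes had a single member, but 619 genes had 2 or more and 10 genes 5 or more. KCNQ1OT1, a long noncoding RNA that silences imprinted neighbours, led with 11 of its 26 eligible regions. Their ratios ran from 2.13 through a median of 3.04 to 4.52 after toosendanin and from 2.05 through 3.03 to 3.80 in control, and their summed ratio was 3.18 after toosendanin and 3.15 in control. None of the 11 has an FDR under 0.05 in the authors' deposited table, and they went both ways. DST, the cytoskeletal linker dystonin, had 7 of 25 regions, from 1.48 to 2.64 after toosendanin and from 2.05 to 2.88 in control, with summed ratios of 2.28 after toosendanin and 2.31 in control. ARID4B, a subunit of a histone deacetylase complex, had 5 of 8, summing to 2.67 after toosendanin and 2.75 in control, and CASP8AP2, a factor of histone mRNA processing, 5 of 6, summing to 3.19 after toosendanin and 3.52 in control.

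CARD8, an inflammasome sensor, had 5 members of 6 regions with summed ratios of 2.15 after toosendanin and 2.32 in control. ANKRD12 had 5 of 11, ranging from 1.42 to 4.49 after toosendanin and from 2.09 to 5.58 in control. All 5 of them were lower after toosendanin, though none is under an FDR of 0.05 in the authors' deposited table. The mitotic genes ASPM and CENPE had 5 members each, but their summed input counts over these were 33 and 66 after toosendanin against 723 and 1123 in control. Their summed ratios of 2.73 and 2.92 after toosendanin, and 2.55 and 2.84 in control, therefore rest on few toosendanin counts.

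**Figure D5:**
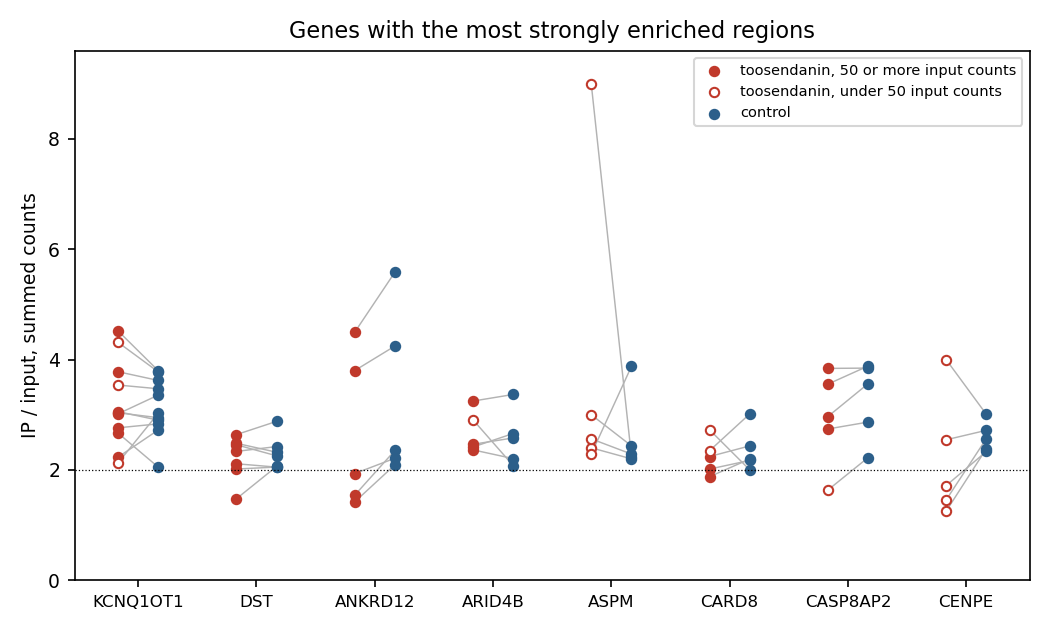
IP over input ratio of summed counts (vertical axis) for each strongly enriched region of 8 of the 10 genes with 5 or more such regions (ties taken in alphabetical order), toosendanin in red left of control in blue, with lines joining the values of 1 region. Open circles mark regions with under 50 toosendanin input counts, which include all those of ASPM and CENPE, where 1 ASPM region with a single input count reached 9.0.

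Expression was the other readout of these genes. In the authors' deposited DESeq2 table of expression, 1097 of 2835 genes of members with an adjusted p were called at 0.05 (38.7%), against 31.4% of all 16552 genes with an adjusted p and 41.0% of 7653 other genes with an eligible region. Of the called genes of members, 422 were higher (14.9%) and 675 lower (23.8%) after toosendanin in the authors' deposited table. In the other genes with an eligible region, 20.5% were higher and 20.5% lower in that authors' deposited table, and among all genes 15.7% and 15.7%. The median log2 change in the authors' deposited table was -0.05 for genes of members and -0.01 for the other genes with an eligible region. With a change of at least 2-fold as well, 46 genes of members were higher and 114 lower in the authors' deposited table, 160 of 2835. Of the 7653 other genes with an eligible region, 179 were higher and 220 lower in the authors' deposited table at that size. Among all genes 7.29% changed so far in either direction. The sources used here do not say which libraries entered that comparison, and if they were the inputs, the control inputs stand in both the choice of members and these changes. With 3 or more members, 43 of 147 genes were lower and 17 higher in the authors' deposited table.

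The 5 largest falls among genes of members in the upper 50% by mean normalized count were all in genes of cell division. In the authors' deposited table CENPE, a kinetochore motor, fell by 4.28 ± 0.21 (log2 change and its standard error), ASPM of the spindle pole by 3.96 ± 0.15 and CIT, a kinase of cytokinesis, by 3.67 ± 0.20. HJURP, the chaperone of the centromeric histone, and CENPF had log2 changes of -3.64 ± 0.15 and -3.64 ± 0.10 in the authors' deposited table. The largest CENPF member had 553 IP and 265 input counts after toosendanin (2.09, interval 1.80 to 2.43) and 10363 and 4291 in control (2.42, interval 2.33 to 2.503). Its input was thus far lower after toosendanin, while the intervals of the ratio overlapped. A smaller CENPF member had 62 IP and 55 input counts after toosendanin (1.13) against 1740 and 849 in control (2.05), and is called lower in the authors' deposited table (FDR 0.0231). All 11 mitosis genes with a member and 13 of 18 DNA damage genes with a member were lower in the authors' deposited table, 0 and 1 higher. Among other genes with an eligible region, 20.5% were lower and 20.5% higher in the authors' deposited table. Mitosis and DNA damage genes without a member were not compared, so these counts are not tied to the enrichment. Only 4 of the 29 mitotic members kept 50 toosendanin input counts. Across all 3670 members 473 were under that count, as were 3015 of the 28369 other regions. The toosendanin input total was also the smaller, at 24253006 against 34131862 in control. Of the 408 genes of these 473 members with an adjusted p, 145 were lower and 7 higher in the authors' deposited table, which the drop in input itself favours.

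The 5 largest rises were taken from the same upper 50% of genes by mean normalized count. ZNF114, a zinc finger gene, rose by 3.38 ± 0.17 in the authors' deposited table. Its member had 2629 IP and 1116 input counts after toosendanin (2.36, interval 2.20 to 2.53) against 406 and 149 in control (2.72, interval 2.25 to 3.31). NUPR1, a stress-induced chromatin protein, rose by 2.93 ± 0.22 and LINC02365 by 2.92 ± 0.14 in the authors' deposited table, with ratios of 1.49 and 1.99 after toosendanin against 2.27 and 2.60 in control. Both of these ratios are called decreases in the authors' deposited table (FDR 0.0319 and 0.00194). EGR1 rose by 2.62 ± 0.13 and ZNF165 by 2.38 ± 0.17 in the authors' deposited table, and the member of ZNF165 had a ratio of 1.68 after toosendanin and 2.26 in control. Of 8 immediate early genes with a member 6 were higher and 1 lower by the authors' deposited table, and of 7 autophagy and lysosome genes 5 were higher and 0 lower. The shares among other genes with an eligible region were 20.5% higher and 20.5% lower in the authors' deposited table. Genes of these lists without a member were not compared, so these counts are not tied to the enrichment. JUN rose by 1.44 ± 0.13 and RRAGC by 1.51 ± 0.16 in the authors' deposited table.

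Few genes of the m6A machinery with a member were called in expression. Of 9 such genes ZC3H13 alone was called in the authors' deposited table, lower by 0.34 on the log2 scale. Over all genes of members 38.7% were called there. RBM15 had a larger but less precise change of -0.45 ± 0.33 in the authors' deposited table and was not called. VIRMA, just outside the group, was called lower there, at -0.41 ± 0.06. Among the 33 chromatin modifiers with a member 4 were higher and 9 lower in the authors' deposited table, and among the 174 zinc finger genes 26 were higher and 20 lower, or 46 together. Over all genes of members, 14.9% were higher and 23.8% lower in the authors' deposited table. Genes with a member called lower in m6A, 407 with an adjusted p, counted 85 higher (20.9%) and 109 lower (26.8%) by the authors' deposited expression table. Their median mean normalized count there was 2832, against 901 for all genes of members. Changes are more easily called at higher counts, so these shares are not comparable.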

How the data were processed

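The submitters' processing notes list HISAT2, StringTie and DESeq with no version. Libraries came from a stranded kit with molecular identifiers, per the labels' protocols. For build, annotation, region caller and test, the sources used here give nothing. The m6A file holds read counts per region, whole numbers that the authors summed per the file headers over 3 libraries, with a log2 fold change, p-value and FDR. The expression file holds the authors' deposited DESeq2 output: a mean normalized count (a signal, never negative), log2 fold change, standard error, p-values and a Wald score, which was not used. With no counts per library at hand, no count model was fitted, and the deposited tests were taken at 0.05. Nothing says whether libraries came from separate cultures, so expression p-values may measure technical spread only.

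Ratios are IP over input counts, unscaled. Intervals are 95% exact Clopper-Pearson intervals of the IP share, turned into ratios, and cover counting error only. Overlap of such intervals is no test of a difference: those of NSD3 and JAG1 overlapped, though both are called decreases. The sources do not say whether reads were collapsed by molecular identifier. Members and gene lists were chosen with earlier results of these data known. Named regions follow a rule: highest control ratio (15), most control input (10), most members per gene (8), largest called changes, nearest the limit, lowest toosendanin ratio, largest expression changes in the upper 50% of means, and up to 4 genes per list. Some genes the rule takes are not printed, and the remaining genes were chosen after their values were seen. Of the 2850 genes, 2830 matched a symbol or synonym. Overlaps and biotypes came from RefSeq GRCh38.p14. The scripts, tested on simulated data, ran under Python 3.11.15 with scipy 1.17.1, pandas 2.3.3, numpy 2.4.6 and matplotlib 3.10.9.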

Additional observations from a re-analysis of the deposited data

How the results depend on the processing

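The number of members, 3670, came to 8248 with a control ratio of 1.5 or more, 462 with 3 or more, 1513 with ratios scaled to table totals and 2043 where the control interval lay above 2 (this last choice made after seeing the data). The share of members at 2 or more after toosendanin, 67.6%, was then 35.5%, 97.0%, 57.4% and 87.0%. It was 63.0% with a minimum of 20 control input counts and 70.9% with 100. The median log2 difference, toosendanin minus control, was -0.15, and it was negative under every alternative run. It was -0.11 from a ratio of 1.5, -0.24 from 3, -0.18 with a minimum of 20 counts and -0.14 with 100. It was -0.071 for regions chosen on the toosendanin sums and -0.12 for those chosen on the geometric mean, the last added after seeing the data. With ratios scaled to table totals it was -0.15, but that run also took fewer members, 1513. On the same regions such scaling adds 0.05 to a difference and brings each of these medians nearer to no change. Members called in the authors' deposited m6A table numbered 428, 228 at an FDR of 0.01 and 9 past 2-fold. Called genes of members in the authors' deposited expression table numbered 1097, 160 past 2-fold and 150 for members with a ratio of 3 or more. The other 12 alternatives kept the direction of each median and moved counts by less than 1.5 times, the widest being 5075 and 2819 members with a minimum of 20 and 100 control input counts and 855 called genes at an adjusted p of 0.01. No paired analysis was possible because the counts are deposited as sums over libraries, and for the same reason no replicate could be left out. Depth limits single members: in 2235 of 3670 the toosendanin interval held 2.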
